A study of Mus musculus with 6 samples.

Results

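The miR-199 and miR-214 hairpins of the mouse heart are described here: Mir199a-1, Mir199a-2, Mir199b and Mir214, each with a 5p and a 3p arm. They were chosen by hairpin name among the sense entries of the count files, which gave 8 of 1102 entries. The rule uses names only, though it was set with earlier results of these data known. The data are 6 small RNA libraries from hearts of male wild-type C57BL/6J mice at an age of 18 weeks, called heart 1 to heart 6 after the number in the labels. C57BL/6J is a common inbred laboratory strain, and all samples form 1 group with no treatment, so comparisons are between arms, loci and hearts. The labels give the tissue as whole heart, whereas their extraction protocol names the frozen apex of the ventricles, so the region sampled is uncertain. They do not state that each library comes from a separate animal, so p-values measure the spread between these libraries, which may be partly technical.

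MicroRNAs are cut as a short duplex from a hairpin, and the arm kept in the Argonaute protein guides it to messenger RNAs, mainly through the seed, bases 2 to 8 of the mature miRNA. The miR-199 and miR-214 hairpins lie opposite to the dynamin genes, and Mir199a-2 and Mir214 share the long noncoding transcript Dnm3os, known from embryonic mesenchyme and fibroblasts. In the heart, miR-214 is known to repress the sodium-calcium exchanger gene Slc8a1, miR-199a-5p to repress Hif1a and Sirt1, miR-199b-5p to repress the kinase gene Dyrk1a, and miR-199a-3p to promote proliferation of cardiomyocytes when supplied in excess.

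Positions are those of the files, on GRCm38. The Mir199a-2 hairpin (chr1:162217814-162217923, plus strand) and the Mir214 hairpin (chr1:162223368-162223477, plus strand) lie 5444 bases apart, in exonic sequence of Dnm3os and antisense to an intron of Dnm3. The Mir199a-1 hairpin (chr9:21496495-21496564, minus strand) is antisense to an intron of Dnm2, and the Mir199b hairpin (chr2:32318460-32318569, plus strand) to an intron of Dnm1. The host transcripts are not analysed here. Hairpin sequences from RefSeq (GRCm38.p6) are shown 5′ to 3′, since the reads of the 3 miR-199 hairpins can be told apart only where the sequences differ, with the 5p and 3p arms at the files' positions in capitals.
Mir199a-1: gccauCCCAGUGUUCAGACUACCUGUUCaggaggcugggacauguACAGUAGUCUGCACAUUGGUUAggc
Mir199a-2: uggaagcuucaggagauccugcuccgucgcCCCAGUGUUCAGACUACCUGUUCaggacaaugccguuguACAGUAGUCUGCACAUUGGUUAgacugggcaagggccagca
Mir199b: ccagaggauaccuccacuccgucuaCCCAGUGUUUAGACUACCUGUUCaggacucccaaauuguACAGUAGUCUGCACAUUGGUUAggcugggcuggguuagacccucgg
Mir214: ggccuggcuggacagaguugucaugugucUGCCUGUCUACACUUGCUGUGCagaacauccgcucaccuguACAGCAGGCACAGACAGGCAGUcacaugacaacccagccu

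The arms sort into 4 seeds, and the mature sequences below carry the seed in capitals. All 4 hairpins matched a RefSeq entry by symbol.
miR-199a-5p, from Mir199a-1 and Mir199a-2: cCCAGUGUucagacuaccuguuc
miR-199a-3p and miR-199b-3p, from all miR-199 loci: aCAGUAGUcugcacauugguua
miR-214-5p: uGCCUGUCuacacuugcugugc
miR-214-3p: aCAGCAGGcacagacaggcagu
miR-761, which has the seed of miR-214-3p and is not analysed here: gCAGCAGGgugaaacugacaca
The 5p arm of Mir199b has the seed of miR-199a-5p and differs from it in 1 of 23 bases, C10U, counted from 1 at the 5′ end of the arm with the miR-199a base first. The 3p arm is identical over its 22 bases at all 3 loci, so its reads are summed and called miR-199-3p. miR-199-3p and miR-214-3p share their first 4 bases and differ in 14 of 22, and their seeds are different. Beyond the 3p arm, Mir199a-1 and Mir199a-2 share 3 more bases upstream and 1 downstream, and beyond the 5p arm 0 upstream and 4 downstream. Apart from miR-761, no other mature miRNA in the RefSeq table had 1 of these seeds.

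The libraries held 3966171 to 6007325 counts, so 1 read corresponded to 0.166 to 0.252 CPM, which is counts per 1000000 counts of a library. A count of 0 would allow a level of up to 0.499 to 0.756 CPM (3 counts). The reads carried no molecular identifiers, so the counting errors and chi-square tests below treat reads as independent molecules, which they may not be. The miR-199 and miR-214 entries together took 0.398% ± 0.106 (SD, n = 6) of the counts, from 0.330% in heart 6 to 0.609% in heart 5. Adapter ligation favours some RNA ends, so the ratios below compare reads and may differ from ratios of molecules. Heart 5 stands apart for several of these miRNAs, and results that rest on it are given without it as well.

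miR-199-3p was the leading product and the 35th most abundant of 994 mature miRNAs. Its level was 3236 CPM in heart 1, 2695 in heart 2, 2963 in heart 3, 2886 in heart 4, 5159 in heart 5 and 2775 in heart 6, with a mean of 3286 ± 936 (SD, n = 6). Heart 5 was 1.77 times the mean of the other hearts, which lay close together. miR-199a-5p, summed over its 2 loci, stood at 536, 470, 505, 541, 706 and 384 CPM in hearts 1 to 6, mean 524 ± 106, and ranked 71st. Heart 5 was again the highest and heart 6 the lowest, a 1.84-fold range.

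miR-214-3p ranked 130th, with 81.7, 87.4, 93.0, 102, 114 and 77.1 CPM in hearts 1 to 6 and a mean of 92.6 ± 13.7 (SD, n = 6). Heart 5 was 1.29 times the mean of the others, the smallest such excess among the 5 miRNAs. miR-199b-5p, the only miR-199 product whose sequence belongs to 1 locus, stood at 59.0, 53.0, 51.8, 45.1, 77.2 and 38.6 CPM in the same order, mean 54.1 ± 13.3, rank 155. miR-214-5p, the minor arm of Mir214, was the lowest at 25.8, 18.5, 26.5, 25.0, 34.96 and 25.2 CPM, mean 26.0 ± 5.26, rank 197. Its 777 reads over the 6 libraries correspond to a mean counting error of 8.79% per library, against 0.777% for miR-199-3p.

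**Figure D1:**
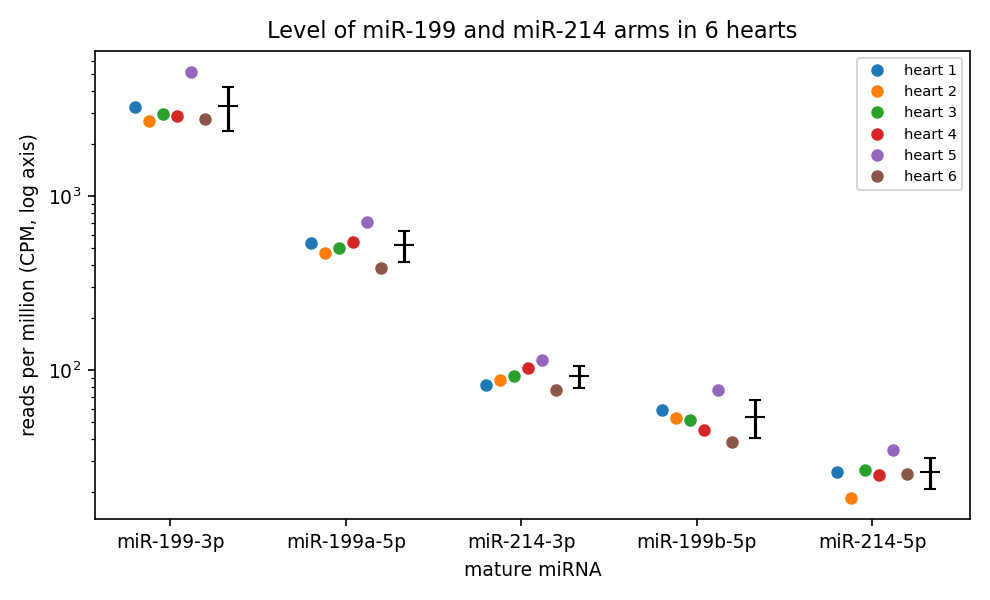
Level of each miRNA in CPM on a log axis, 1 coloured point per heart, with the mean and SD over 6 hearts as a black bar beside the points. miR-199-3p lies between 2695 and 5159 CPM and miR-214-5p between 18.5 and 34.96 CPM, and heart 5 is the highest point of each miRNA.

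The order of these levels was the same in every heart. All 10 pairs of the 5 miRNAs differed in reads (edgeR quasi-likelihood fit, libraries as blocks, largest adjusted p = 3.51e-08), each in 6 of 6 hearts. miR-199-3p was 6.21-fold above miR-199a-5p (log2 ratio 2.63 ± 0.09, SE, n = 6, edgeR adjusted p = 3.16e-24), lowest in heart 4 (5.33) and highest in heart 5 (7.31). miR-199a-5p was 5.61-fold above miR-214-3p (log2 ratio 2.49 ± 0.09, edgeR adjusted p = 4.28e-23). The nearest neighbours in the order were miR-214-3p and miR-199b-5p, 1.73-fold apart (log2 ratio 0.79 ± 0.11, edgeR adjusted p = 3.51e-08), with ratios of 1.38 in heart 1 to 2.27 in heart 4. miR-199b-5p was 2.07-fold above miR-214-5p, from 1.53 in heart 6 to 2.86 in heart 2. These p-values, and the SE of log2 ratios here and below, use a spread that edgeR moderates over all rows of the table. The SE was derived from the test statistic, not from the SD of the ratios over the hearts.

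Within Dnm3os, the 2 hairpins gave unequal numbers of reads. Mir214 supplied 4.40% ± 0.565 (SD, n = 6) of the reads booked on Mir199a-2 and Mir214, with 5.08% in heart 4 at the top and 3.52% in heart 5 at the bottom. The 3p arms of Mir199a-2 are part of this sum although their sequence is shared with Mir199a-1 and Mir199b, so the share is that of the authors' assignment of reads.

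As booked, all 4 hairpins had more 3p than 5p reads, and all were called (edgeR quasi-likelihood fit, ratio of 2-fold or more, largest adjusted p = 2.17e-16). For each single miR-199 hairpin this depends on how reads of shared sequence were assigned, which the sum over its 3 loci does not. Among all hairpins with reads enough for the test, 40.7% were called for the 3p arm, 48.6% for the 5p arm and 89.3% for either. With its 3 loci summed, miR-199 gave 5.63 reads of 3p per read of 5p (log2 ratio of 5p to 3p -2.49 ± 0.09, SE, n = 6), and the ratio of reads was 5.44, 5.15, 5.32, 4.92, 6.59 and 6.57 in hearts 1 to 6. Mir214 gave 3.56 reads of 3p per read of 5p (log2 ratio -1.83 ± 0.11), with 3.16, 4.72, 3.51, 4.10, 3.26 and 3.06 in the same order. For comparison, the median excess among the hairpins called for 3p was 43.1-fold, so the minor arms of miR-199 and miR-214 kept a larger part of the reads than the median hairpin of that direction. As booked by name, Mir199a, Mir199b and Mir214 ranked 69th, 76th and 75th from the most 3p-rich hairpin.

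The 5p share of miR-199 was 15.5%, 16.2%, 15.8% and 16.9% in hearts 1 to 4, against 13.2% in heart 5 and 13.2% in heart 6. The 6 shares differed beyond counting noise (chi-square test of the arm counts, adjusted p = 7.36e-41), as did those of 28.5% of the hairpins, a check chosen after the data were examined. Mir199b taken alone, with its 3p reads as booked, passed the same test (adjusted p = 0.0251), with 5p shares from 22.5% in heart 6 to 28.6% in heart 2. Mir214 did not (adjusted p = 0.0897), and its 5p shares ran from 17.5% in heart 2 to 24.6% in heart 6. Its test rested on 3515 reads, against 116485 for miR-199, so only larger differences could be detected. The SD of the share over the hearts was 2.80 percentage points for Mir214 and 1.58 for miR-199. The SD from counting alone was 1.71 and 0.254 points in that order. The arm share of Mir214 was therefore not shown to be steadier than that of miR-199. Hearts 5 and 6, low for miR-199, were among the 3 highest for Mir214.

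**Figure D2:**
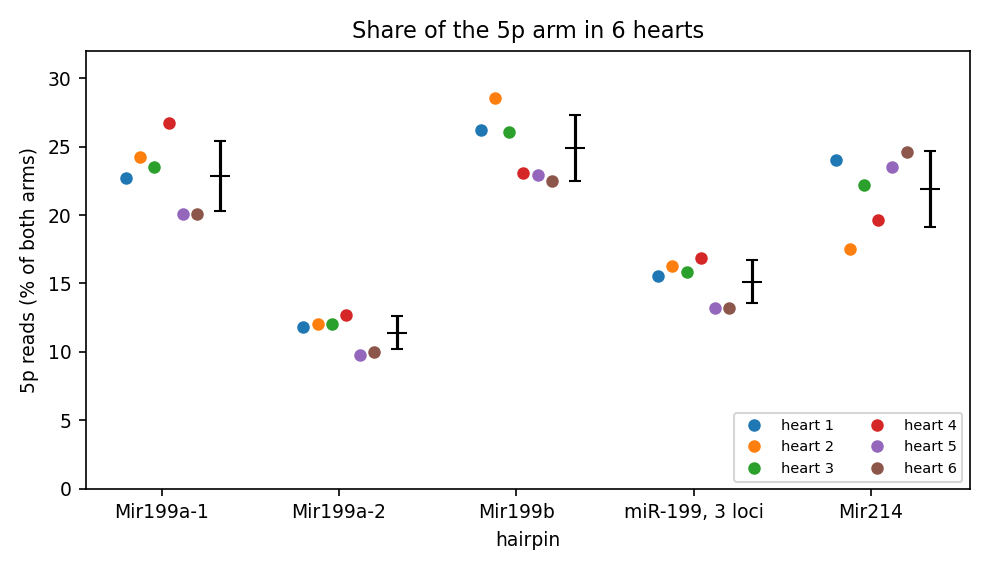
Share of 5p reads in the reads of both arms of each hairpin, in percent from 0, 1 point per heart, with the mean and SD as a black bar. The summed miR-199 loci show hearts 5 and 6 together at 13.2%, below the other hearts at 15.5% to 16.9%, while Mir214 spreads from 17.5% to 24.6%.

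By locus as booked, most miR-199 reads were placed on Mir199a-2. Of miR-199-3p, 71.4% ± 0.495 (SD, n = 6) was booked on Mir199a-2, 23.6% ± 0.526 on Mir199a-1 and 5.01% ± 0.150 on Mir199b. Of miR-199a-5p, 56.7% ± 0.999 was on Mir199a-2 and 43.3% ± 0.999 on Mir199a-1. Since these sequences are the same at each locus, the shares describe how reads were assigned, and transcription of the loci cannot be told apart from it. Of all miR-199 5p reads, Mir199b, which C10U sets apart, held 9.34% ± 0.892, against its 5.01% of the 3p reads.

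The booked ratios were nevertheless stable. Mir199a-2 exceeded Mir199a-1 by 3.02-fold for the 3p arm (edgeR adjusted p = 1.50e-19), with ratios from 2.90 in heart 2 to 3.16 in heart 4. For the 5p arm the excess was 1.31-fold (log2 ratio 0.39 ± 0.08, SE, n = 6, edgeR adjusted p = 4.63e-05), with ratios from 1.24 to 1.36, all above 1. Neither split differed between hearts beyond counting noise (chi-square test, adjusted p = 0.288 for the 3p and 0.510 for the 5p arm), whereas 55% of 20 sequences encoded at several loci did, again a check chosen after the data were examined. In the 18 others of these, each with 2 loci, the leading locus held 54.7% to 93.7% of the reads with a median of 79.8%.

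**Figure D3:**
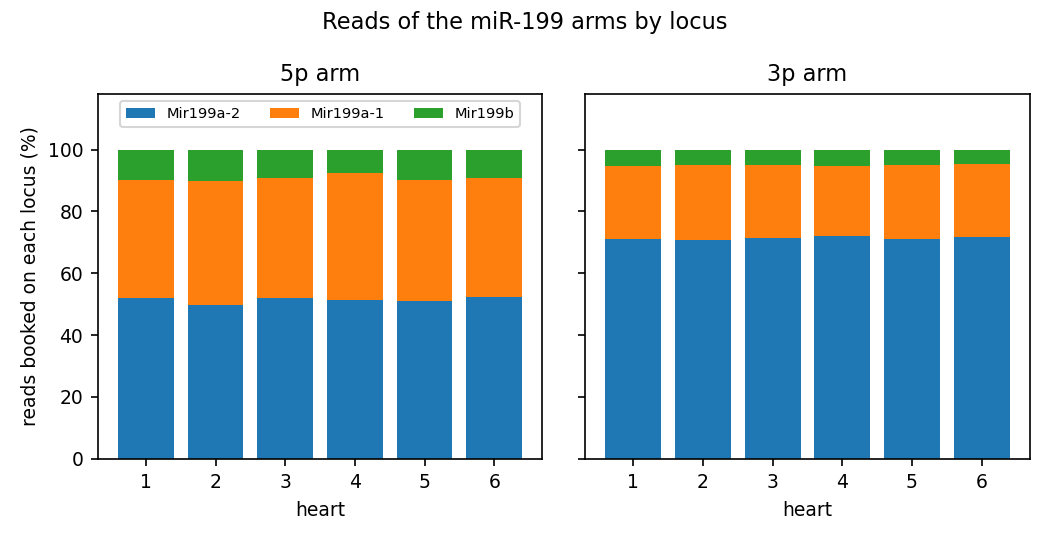
Percent of miR-199 reads booked on each locus, as stacked bars from 0, 1 bar per heart, for the 5p arm on the left and the 3p arm on the right. Mir199a-2 takes 49.8% to 52.3% of the 5p reads and 70.7% to 72.0% of the 3p reads, and Mir199b 7.70% to 10.1% of the 5p and 4.79% to 5.21% of the 3p reads.

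The unequal splits of the arms carry over to the arm ratios of single loci. As booked, Mir199a-2 had 7.82 reads of 3p per read of 5p, Mir199a-1 3.39 and Mir199b 3.03. The 5p share of Mir199a-2 was 9.79% to 12.7% and that of Mir199a-1 20.05% to 26.7%, so the ranges over the hearts did not overlap. Both arms have the same sequence at these loci, so the gap describes how reads were assigned. A difference in arm use between the loci cannot be told apart from it. Level by level, Mir199a-2-3p stood at 2344 ± 665 CPM, Mir199a-1-3p at 777 ± 224 and Mir199b-3p at 165 ± 47.9. Mir199a-2-5p stood at 297 ± 59.5 CPM and Mir199a-1-5p at 227 ± 47.2. For Mir199b, the ratio of 3p to 5p reads was lowest in heart 2 (2.50) and highest in heart 6 (3.45).

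All 5 miRNAs varied between hearts more than counting allows (chi-square test of the 6 counts, largest adjusted p = 4.69e-05, that of miR-214-5p), as did 71.8% of the 354 miRNAs that averaged 10 or more reads. The coefficient of variation of CPM (SD over mean) was 28.5% for miR-199-3p, 24.6% for miR-199b-5p, 20.3% for miR-199a-5p, 20.2% for miR-214-5p and 14.8% for miR-214-3p. Without heart 5 these were 7.17%, 15.9%, 13.2%, 13.3% and 11.2% in that order. edgeR's biological coefficient of variation over the 6 hearts was 19.9%, 21.6%, 16.9%, 18.9% and 15.3% in the same order, against a common value of 18.9%. Without heart 5, that of miR-199-3p was 10.5%. In the chi-square test without heart 5, 4 of the 5 still passed (65.5% of 348 miRNAs), and miR-214-5p did not (adjusted p = 0.108).

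Each of the 5 miRNAs was highest in heart 5, also after scaling by the trimmed mean of M values (TMM), as were 23.4% of 354 miRNAs. Heart 5 exceeded the mean of the other hearts 1.72-fold for miR-199-3p, 1.52-fold for miR-199b-5p, 1.41-fold for miR-199a-5p, 1.41-fold for miR-214-5p and 1.26-fold for miR-214-3p on that scale. The median over all 354 was 0.984, and by this ratio miR-199-3p ranked 17th and miR-214-3p 69th. The lowest heart was not the same for all 5. It was heart 6 for miR-199a-5p and miR-199b-5p and heart 2 for miR-214-5p with either scaling. For miR-199-3p it was heart 4 after TMM and heart 2 in CPM, and for miR-214-3p heart 1 after TMM and heart 6 in CPM.

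**Figure D4:**
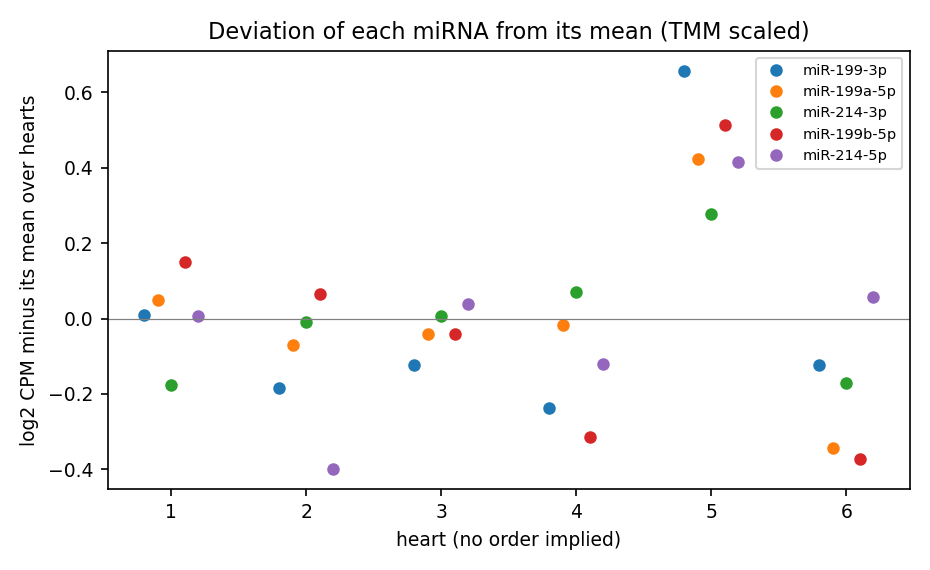
Deviation of log2 CPM (TMM scaled) of each miRNA from its mean over the 6 hearts, 1 point per miRNA and heart. All 5 points of heart 5 lie above 0, from 0.28 for miR-214-3p to 0.66 for miR-199-3p, while each other heart has points on both sides of 0.

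Across the 6 hearts all 10 pairs of these miRNAs had a positive Pearson r, with a median of 0.73 against -0.01 over all 22155 pairs of the 211 miRNAs that averaged 100 or more reads. Both values of a point come from 1 library, and heart 5 was the farthest from the median of the more abundant miRNA in all 10 pairs. The hearts left out below as farthest were chosen by that miRNA alone. For miR-214-5p, heart 2 lay about as far out as heart 5 (log2 deviations from its mean -0.40 and 0.42). An unadjusted exact permutation p under 0.05 was found for 3 of the 10 pairs. Of all 22155 pairs, of either sign, 3.64% had such a p together with a positive r. After adjustment over all pairs, 0 of the 10 or of all pairs passed (Benjamini-Hochberg, smallest adjusted p of the 10 pairs 0.640). miR-199a-5p with miR-199b-5p had the highest r of the 10, 0.88 (two-sided exact p = 0.0236, adjusted 0.640), with rho = 0.77 (exact p = 0.103, adjusted 0.775). Its r was 0.23 when hearts 5 and 6, which lay farthest out, were left away, and 0.97 without hearts 4 and 5. For miR-199-3p with miR-199b-5p, r was 0.84 (exact p = 0.0292, adjusted 0.641), rho was 0.71 (exact p = 0.136, adjusted 0.799), and r was 0.09 without hearts 5 and 1. For miR-199-3p with miR-214-5p, r was 0.83 (exact p = 0.0417, adjusted 0.668), rho was 0.71 (exact p = 0.136, adjusted 0.799), and r was 0.57 without hearts 5 and 1.

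Of the pairs that join products of Mir199a-2 and Mir214, miR-199-3p with miR-214-5p is given above. For the major arms, miR-199-3p with miR-214-3p, r was 0.67 (exact p = 0.176, adjusted 0.786), rho was 0.03, and r was -0.80 without heart 5. For miR-199a-5p with miR-214-5p, r was 0.56 (exact p = 0.215, adjusted 0.805), rho was 0.26 (exact p = 0.658, adjusted 0.958), and r was -0.23 without heart 5. miR-199a-5p, of which 56.7% was booked in the cluster, had r = 0.80 with miR-214-3p (exact p = 0.0861, adjusted 0.731), rho = 0.43 (exact p = 0.419, adjusted 0.906), and r = -0.72 without hearts 5 and 6. Its r was 0.38 without heart 5 and 0.30 without hearts 4 and 5. With any 1 heart left out this r was positive, up to 0.99 without heart 1, where heart 5 is kept. That value had an unadjusted exact p of 0.00833, the smallest that 5 hearts allow. The pair miR-199a-5p with miR-199b-5p reached the same unadjusted exact p without heart 2 (r = 0.91). Both are the smallest p among all 10 pairs with 1 heart left out, so they are selected values. The arms of Mir214, from 1 hairpin, had r = 0.45 (exact p = 0.349, adjusted 0.861), rho = 0.26 (exact p = 0.658, adjusted 0.958), and r = -0.39 without hearts 5 and 1. Without heart 5 the median r of the 10 pairs was 0.02, 5 were positive and 0 had an exact p under 0.05. The 5 positive values were 0.68 for miR-199a-5p with miR-199b-5p, 0.56 for miR-199-3p with miR-199b-5p, 0.51 for miR-199-3p with miR-214-5p, 0.38 for miR-199a-5p with miR-214-3p and 0.17 for miR-199-3p with miR-199a-5p. The 3 unadjusted calls were thus lost without heart 5, and the number of the 10 pairs called, not always the same pairs, was 1 without heart 1 and 1 without heart 3.

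**Figure D5:**
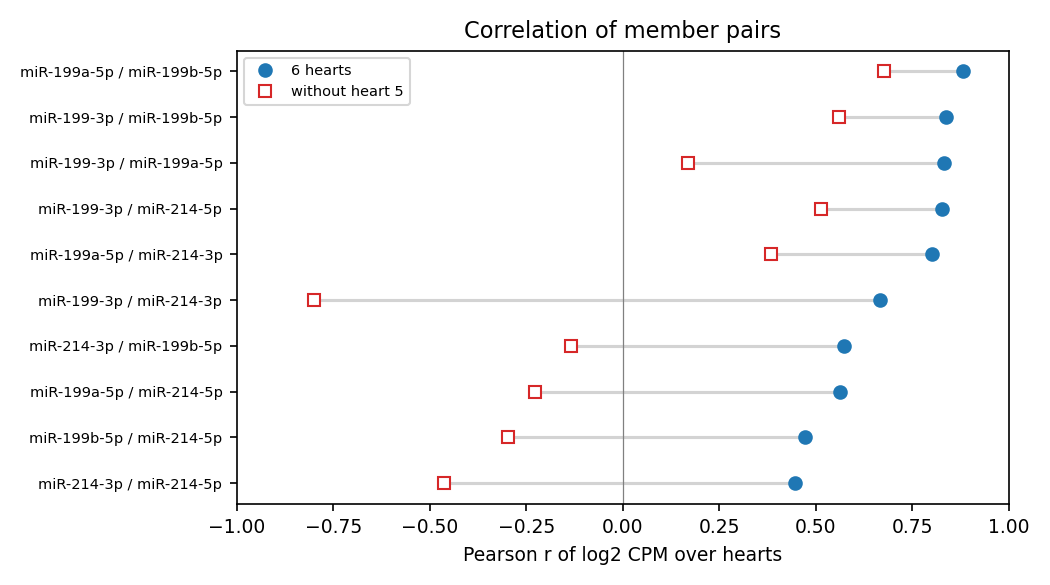
Pearson r of log2 CPM (TMM scaled) for the 10 pairs, as filled circles over 6 hearts and open squares without heart 5. The circles lie between 0.45 and 0.88, and the squares between -0.80 for miR-199-3p with miR-214-3p and 0.68 for miR-199a-5p with miR-199b-5p.

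The miRNAs of other hairpins with the most similar pattern over the 6 hearts differed between the 5, and are given as a description over 206 miRNAs. For each of the 5, they were picked as the highest r of 206 over only 6 hearts, so these r are high partly by selection. The values without heart 5 reuse the other hearts of that pick, so they are not a separate check. miR-199-3p was closest to miR-140-3p (r = 0.99) and miR-140-5p (r = 0.97), the cartilage miRNAs of Wwp2, followed by miR-100-5p (r = 0.94), miR-300-3p (r = 0.93) and miR-127-3p (r = 0.92). miR-140-3p stood at 1808 CPM in heart 5 and at 600 to 779 CPM in the others, 2.70 times their mean. Without heart 5 the r with miR-199-3p was 0.87 for miR-140-3p, 0.70 for miR-140-5p, 0.56 for miR-100-5p, 0.34 for miR-300-3p and -0.20 for miR-127-3p. miR-199a-5p was closest to the smooth muscle miRNA miR-145a-5p (r = 0.99), which had 780, 650, 690, 780, 1015 and 558 CPM in hearts 1 to 6. Without heart 5 that r was 0.96. Next came miR-300-3p (r = 0.95), miR-23a-3p (r = 0.94), miR-136-3p (r = 0.92) and miR-208b-3p (r = 0.89), with values of 0.71 to 0.88 without heart 5.

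miR-214-3p was closest to miR-125b-5p (r = 0.95, and 0.85 without heart 5), then to miR-136-3p (r = 0.92), miR-23a-3p (r = 0.92), miR-23b-3p (r = 0.89) and miR-92b-3p (r = 0.88), these 4 with 0.74 to 0.81 without heart 5. miR-199b-5p was closest to miR-381-3p (r = 0.93), miR-872-3p (r = 0.93), miR-100-5p (r = 0.92), miR-103-3p (r = 0.91) and miR-410-3p (r = 0.88), with 0.68 to 0.96 without heart 5. miR-214-5p was closest to miR-9-5p (r = 0.91), miR-490-3p (r = 0.90), miR-676-5p (r = 0.88), miR-411-5p (r = 0.87) and miR-434-3p (r = 0.86), with 0.67 to 0.83 without heart 5. Of these, miR-300-3p, miR-127-3p, miR-136-3p, miR-381-3p, miR-410-3p, miR-411-5p and miR-434-3p come from the imprinted Dlk1-Dio3 region. The share of that region among the 206 miRNAs compared was not counted, and a link to it was not tested.

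Marker lists of other cells moved with heart 5 to different degrees. The counts of members highest in heart 5 are on CPM. After TMM scaling, 23.4% of 354 miRNAs were highest there. The list of the Dlk1-Dio3 imprinted cluster summed to 2727 CPM in heart 5 and to 1501 to 1809 CPM in the others, with 6 of 8 members highest in heart 5. Most of this sum was miR-127-3p (2152 CPM in heart 5), which is also in the fibroblast and connective tissue list. The smooth muscle list, almost all miR-143-3p, summed to 114060 CPM in heart 5 against 66160 to 103168, with 2 of 3 members highest there. The fibroblast and connective tissue list summed to 25537 CPM in heart 5 against 21268 to 29302. Of this list, miR-21a-3p was lowest in heart 5 (20.5 CPM against 32.3 to 73.3), miR-10b-5p was higher in hearts 1 and 4 than in heart 5, and miR-21a-5p in hearts 1, 3 and 4, while 3 of the 6 members, miR-127-3p and both miR-140 arms, were highest in heart 5. The cardiac muscle list (94316 CPM in heart 5 against 95043 to 106582) and the leukocyte list (2951 against 3219 to 3770) were lowest in heart 5, although 2 of 5 cardiac markers, miR-1a-3p and miR-208b-3p, were highest there. Of the leukocyte list, only miR-150-5p was itself lowest in heart 5. Both miR-142a arms and miR-223-3p were lowest in heart 6, and miR-146a-5p in heart 1. The endothelial list (89096 against 84301 to 97646) and the erythroid list (4125 against 2264 to 5878) lay within the range of the other hearts. All listed miRNAs were found. In the imprinted cluster, miR-382-5p and miR-382-3p, not highest in heart 5, averaged only 1.08 and 0.815 CPM, and miR-382-3p was at 0 in heart 3. In such bulk tissue, more cells of a type and more RNA per cell cannot be told apart, and the part of these lists in the levels of miR-199 and miR-214 was not tested.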

How the data were processed

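Small RNA libraries of 6 hearts were used. Per the labels' protocols, total RNA in Trizol was ligated to adapters with a TruSeq small RNA kit, reverse transcribed, amplified and size selected. The authors deposited whole-number read counts per mature arm and locus, not normalized, per the file headers. The submitters' processing notes list GRCm38, DESeq and edgeR, with no version or role of the tools. Not given in the sources used here are the aligner, the counter and how multi-mapping reads were placed.

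Of 1102 entries, 38 antisense entries were matched to an annotated hairpin opposite to them, and another 38, at most 0.000725% of a library, were left out. Entries of 1 mature name were summed, giving 994 miRNAs. CPM was computed on library totals. Ratios of arms, of the 10 pairs and of loci were fitted in 1 table of all hairpins with edgeR 4.0.16 (R 4.3.3), with the library as a block, a mean of at least 10 reads and Benjamini-Hochberg adjustment over the table. The ratio, counting noise and correlation tests were each tested on simulated data. Chi-square tests compared the 6 counts with library totals; those of arm and locus shares were chosen after the data were examined. Correlations used TMM-scaled log2 CPM (prior count 1) and exact tests over all 720 orders of the hearts. Alternatives were DESeq2 1.42.0, other scalings, filters and prior counts, rank correlation, and leaving out hearts. Named miRNAs are the hairpins' own products, the 5 most similar others of each by Pearson r, miRNAs of the same seed and fixed marker lists. The hairpins and lists were chosen with earlier results of these data known.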

Additional observations from a re-analysis of the deposited data

Results flagged for a closer look

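In groups of 6, a value was marked when its gap to the nearest other heart exceeded Dixon's 95% critical share of the whole range, which chance gives in about 1 of 20 groups. Of 58 sets of 6 values checked, which overlap in their reads, 6 were marked, 5 of them for heart 5. miR-199-3p stood at 5159 CPM in heart 5, against 2695 to 3236 CPM in the other hearts. Its reads as booked on Mir199a-2 (3676 CPM in heart 5, others 1906 to 2296), Mir199a-1 (1224 CPM, others 648 to 774) and Mir199b (259 CPM, others 132 to 166) were marked likewise, and are not separate evidence. The summed Dlk1-Dio3 imprinted cluster list, most of it miR-127-3p, stood at 2727 CPM in heart 5, against 1501 to 1809 CPM. The ratio of miR-199a-5p to miR-199b-5p was 11.99 in heart 4, against 8.87 to 9.95 in the other hearts.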

How the results depend on the processing

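The 20 ratios of arms, pairs and loci kept their direction and their call in all 182 alternative values, with adjusted p of at most 0.000397. The alternatives were DESeq2, no filter, each heart left out, and hearts 4 and 5 left out. For the summed miR-199 arms, reads as booked on Mir199a or on Mir199b were also taken, which repeats the main ratios of those names. The arms of Mir214 are also a pair, so that ratio enters under both headings. The levels moved by less than 1 SD in all 40 alternative values. For means with 1 heart left out this holds by arithmetic, so it does not show how far they rest on 1 heart. Without heart 5 the mean of miR-199-3p was 2911 CPM, against 3286 CPM over all hearts. Of the 5 miRNAs, 5 varied beyond counting noise, and 4 to 5 with 1 heart left out and 3 without hearts 4 and 5, where fewer samples were tested. The number of the 10 pairs with an unadjusted exact p under 0.05 was 3, and it was 5 on library totals, 0 for Spearman's rho, 0 to 3 with 1 heart left out (1 without heart 1, 1 without heart 3, 0 without heart 5) and 0 without hearts 4 and 5. The direction of r turned negative without heart 5 in 5 pairs. Leaving out 1 heart each, r ran from -0.80 to 0.78 for miR-199-3p with miR-214-3p, -0.23 to 0.87 for miR-199a-5p with miR-214-5p, -0.14 to 0.82 for miR-214-3p with miR-199b-5p, -0.46 to 0.64 for both arms of Mir214, and -0.30 to 0.83 for miR-199b-5p with miR-214-5p. Without hearts 4 and 5, r was -0.67 for miR-199-3p with miR-214-3p, -0.21 for miR-199a-5p with miR-214-5p, -0.51 for the arms of Mir214 and -0.42 for miR-199b-5p with miR-214-5p. For miR-199a-5p with miR-199b-5p it was 0.97, above the 0.88 over all hearts. The cause of these changes was not tested. No paired analysis was possible because the libraries form 1 group, so there are no groups whose samples could be paired. This concerns groups only: the ratios of arms, pairs and loci were compared within libraries. The counts of miR-214-5p, 92 to 210 per library, limit what can be seen of its spread.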

Other observations

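Reads opposite to these hairpins were almost absent. The only antisense entry at any of them was that of the Mir214 5p arm, with 2 reads over the 6 libraries, 1 in heart 3 and 1 in heart 5.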
